A study of Mus musculus with 48 samples.

Results

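Gene expression was compared between cortical astrocytes of mice at postnatal day 14 (P14) and postnatal day 7 (P7), the interval in which rodent cortical astrocytes complete much of their growth. The comparison used 7 of the 48 bulk RNA-seq libraries of the series, 4 labelled cortex, astrocyte, P14 and 3 labelled cortex, astrocyte, P7, and was chosen by these tissue and age labels alone. Another 3 cortex libraries at P1 entered the same fit and served to set the second postnatal week beside the first. The series as a whole measured astrocytes from cortex, olfactory bulb and hippocampus at P1, P7 and P14, and at P28 with and without a conditional deletion of Gabbr1. Hippocampus, olfactory bulb and P28 are not described here.

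The cortex groups at P1, P7 and P14 carry no genotype, strain, sex, agent or driver line in the labels, and no animal is named. Tissue was dissociated by a published procedure, and libraries were built from sub-nanogram to nanogram amounts of total RNA with the Trio low-input kit. How the astrocytes were separated from other cells, and whether animals were pooled, is not given in the sources used here. Nothing in the labels says that the libraries of an age came from separate animals, so p-values measure the spread between these libraries, which may be technical. The library numbers in the labels do not interleave between ages and no batch is labelled, so a batch between the ages cannot be told apart from age.

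Astrocytes arise from radial glia and from local division of young astrocytes during the first weeks after birth. They then extend fine processes that wrap synapses, clear glutamate and GABA, buffer potassium, couple through gap junctions, hold the glycogen of the brain and supply neurons with lipids, serine and lactate. In rodents, cortical synapse number increases steeply in the second postnatal week, around eye opening. The GABA-B receptor, a dimer of the proteins encoded by Gabbr1 and Gabbr2, is the metabotropic receptor for GABA.

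All values are normalised read counts, the deposited reads per gene divided by one factor per library, and they are not corrected for gene length. Libraries held 6403799, 4828515 and 7850503 reads at P7 and 12572795, 7838934, 15008466 and 9706381 at P14. The ribosomal RNA precursor Rn45s took between 13.7% and 26.7% of the reads of the 10 cortex libraries. At least 1 read was seen for 15946 to 16849 genes at P7 and for 14316 to 15299 at P14. Pairwise Pearson correlation across genes of log2 values ran from 0.954 to 0.978 within P7 and from 0.948 to 0.959 within P14 (genes are not independent replicates). Defining astrocyte genes were abundant in all 7 libraries: Slc1a3, a glutamate transporter, lay between 14736 and 23656, and Aldh1l1, the folate enzyme used as a pan-astrocyte marker, between 813 and 1099. Libraries differed in sex chromosome genes. Reads of the Y-linked gene Ddx3y numbered 1033 and 655 in P14 replicates 3 and 4 and at most 1 in each of the other libraries. Xist, the RNA of the inactive X chromosome, read 3194, 3363 and 4289 at P7 and 297, 246, 0 and 2.08 at P14, so the P14 libraries without Ddx3y reads also lay below every P7 library.

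The libraries also held RNA of other cell types, in amounts that changed with age. Summed over 26 neuron markers, the values were 8490.1, 4914 and 10361 at P7 and 4352, 4119, 4028 and 2928 at P14, and P7 replicate 2 was the lowest of its group. Summed over 16 microglia markers they were 782, 2441 and 845 and 2103, 4107, 2955 and 4661, with P7 replicate 2 the highest of its group. Summed over 16 mature oligodendrocyte markers they were 1108, 1242 and 1084 and 16088, 26905, 20245 and 24145. Neuron and oligodendrocyte sums did not overlap between the ages, so they moved with each gene group below that did the same, and their part in those results was not tested. In bulk samples, fewer cells of a type and less RNA per cell cannot be told apart.

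**Figure D1:**
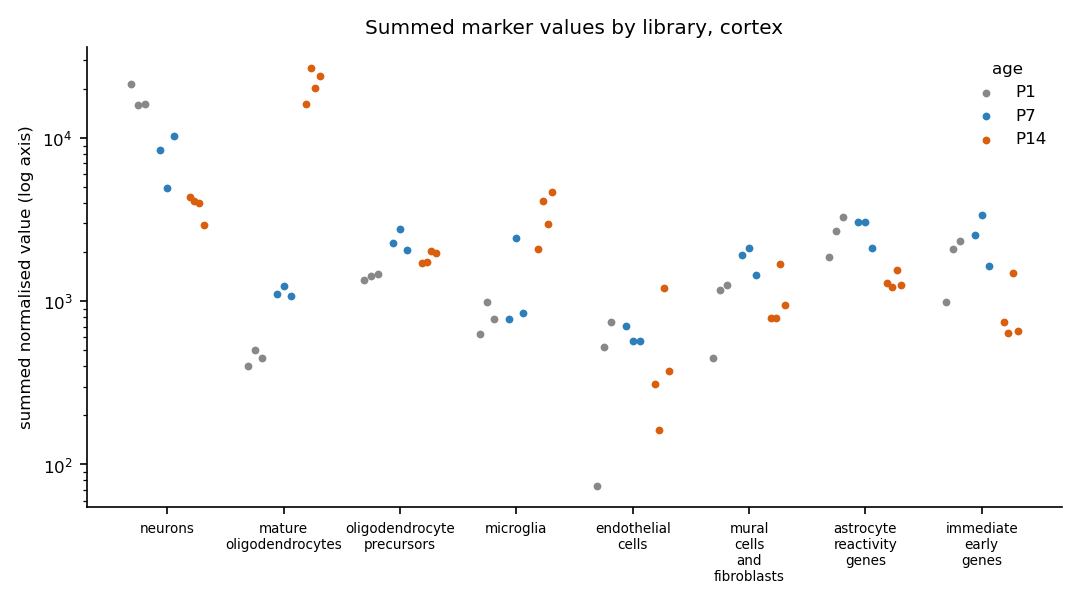
Summed normalised values of marker lists (log y axis) in each of the 10 cortex libraries, one point per library, coloured by age (P1, P7, P14). Mature oligodendrocyte sums lie between 1084 and 1242 at P7 and between 16088 and 26905 at P14, while neuron sums fall from P1 to P14.

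Between P7 and P14, 5893 of 11822 tested genes (49.8%) changed at an adjusted p under 0.05 (limma on log2(value + 1), Benjamini-Hochberg over all tested genes), 2197 higher at P14 (18.6%) and 3696 lower (31.3%). The change was at least 2-fold for 826 of the higher and 1939 of the lower genes, and at least 8-fold for 44 and 269. Over all 11822 tested genes, every P14 library lay above every P7 library for 2344 and below for 3631. Separated groups, as given for genes below, were therefore common. The median log2 difference of all tested genes was -0.19 on the deposited scale and -0.01 after TMM scaling, under which 3006 genes were higher and 2738 lower. Slc1a2 alone took 9.05% to 9.78% of all reads at P14 and 1.67% to 2.27% at P7. Directions below are on the deposited scale, and a call that TMM scaling ended is named beside the gene. TMM scaling also brought past the threshold, as higher, Cpt1a, Fads2, Phgdh, Slc2a1, Fgfr1, Zbtb4 and Itgb8. Quantile normalization brought past it, as lower, Aqp4, Slc6a11, Fasn, Hmgcs1, Bmpr1a, Bmpr2, Ncor1, Rpl4, Tet1 and Dag1. As higher it brought past the threshold Trem2 and the Y-linked genes Ddx3y and Kdm5d. Quantile normalization, which gives all libraries the same distribution, ended the calls of Mfge8, Dll1, Gins1, Stard4, Acat2, Scd1, Mthfd1l, Hes1, Ptch1, Sufu, Bmpr1b, Rxrg, Mbd1, Itgav, Col9a1, B2m, Stat2, S1pr3, Npas4, Cspg4 and Itm2a among the genes below, set Slc1a2 to 0 by construction and turned the signs of Slc1a3 and Mthfd2. Without P14 replicates 3 and 4, the libraries with Ddx3y reads, 5199 genes changed, and with Ddx3y presence as a covariate 5087 did. The covariate marks only those libraries, so both fits compare P14 replicates 1 and 2 with P7 and are not separate checks. Leaving out any 1 of the 10 libraries gave between 4810 and 5928 changed genes.

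Among genes of at least median abundance whose libraries did not overlap, leaving out the lists of other cell types, reactivity, early response and sex chromosome genes (Mbp, Mobp, Dcx and Xist among them, whose values are given elsewhere), the 12 largest rises ran from 3.49 to 5.08. Kcng4, a modulatory subunit of voltage-gated potassium channels, read 1.73, 3.09 and 4.53 at P7 and 147, 151, 96.8 and 145 at P14, a log2 difference of 5.08 (SE 0.39, adjusted p 4.07e-07). Fam107a, an actin-associated protein, read 331, 341 and 289.6 and then 10451, 8104, 8811 and 9674 (4.84, SE 0.16, adjusted p 9.43e-10). Aldh1a1, which makes retinoic acid from retinaldehyde, read 62.9, 50.3 and 41.7 and then 1629.8, 1399, 1211 and 1208 (4.70). Lack of overlap between the ages was a condition of this ranking, here and for the falls below. Apln, the precursor of the peptide apelin, read 58.3, 51.8 and 42.6 and then 903, 940.2, 846 and 685 (4.03). Prex2, an exchange factor for the small GTPase Rac, read 881, 1041 and 813 and then 12419.7, 11288, 11277 and 11062 (3.66). The others of the 12 largest rises were Grin2c, Pygm, Gjb6, Ntsr2 and Mt2, described below, Smim3, a small membrane protein (3.64), and Sult1a1, a sulfotransferase (3.49).

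Under the same limits the 12 largest falls ran from -3.57 to -4.68. Several were in genes known from neurons, and the neuron marker sum ran from 4914 to 10361 at P7 and 2928 to 4352 at P14. Cd24a, a surface glycoprotein of immature neural cells, read 669, 454 and 497 at P7 and 38.2, 19.5, 25.9 and 31.2 at P14 (-4.21, SE 0.20, adjusted p 1.03e-08). Dpysl5, a collapsin response mediator of growing axons, read 559.7, 259.8 and 621 and then 23.5, 22.6, 23.7 and 29.6 (-4.13). Meg3, an imprinted long non-coding RNA, read 2051, 497 and 3459.6 and then 79.4, 35.8, 285 and 21.8 (-4.52). For Meg3 the P7 libraries themselves differed widely, with replicate 2 lowest as in the neuron marker sum. The same library was the lowest of P7 for Snhg11, a long non-coding RNA (-4.68), Csrnp3, a nuclear factor (-4.65), Syt4, a synaptotagmin (-4.44), Cxadr, an adhesion protein (-3.92), Scn3a, a sodium channel (-3.79), L1cam, an axonal adhesion molecule (-3.72), and Slc8a1, a sodium-calcium exchanger (-3.68). It was also the lowest for Kcnq1ot1, an imprinted RNA transcribed antisense to Kcnq1 (-3.73), whose reads cannot be told from those of its partner without strand information. Mest, an imprinted gene, read 464, 381 and 434 and then 32.5, 28.9, 59.3 and 26.5 (-3.57), with P7 libraries close together. P7 replicate 2 was the lowest P7 library for Cd24a, Dpysl5 and Mest too, and so for all 12 of these falls. The part of neuronal RNA in these falls was not tested.

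Genes of mature astrocyte functions rose together. Of 26 members tested, 23 were higher at P14, 0 were lower and 3 did not pass, and the list median was 1.14 beside -0.19 for all genes. Slc1a2, which encodes GLT-1, the main glutamate transporter of the forebrain, read 61611, 84819 and 73362 at P7 and 430277, 457749, 443645 and 492764 at P14, a rise of 2.65 (SE 0.15, adjusted p 2.82e-08). Every P14 library lay above every P7 library. Gjb6, encoding the gap junction protein connexin 30, read 153, 114 and 86.6 and then 1662, 1382, 1246 and 1469.8 (3.63, SE 0.48, adjusted p 4.16e-05). The P14 libraries were again far above those of P7. Ntsr2, a neurotensin receptor of astrocytes, read 227, 257 and 216 and then 3417, 2494, 2694 and 3016 (3.63). S100b, a calcium-binding protein of maturing astrocytes, read 253, 264 and 252 and then 1920.0, 1766, 1647 and 1564 (2.74). The metallothioneins Mt1 (3.05) and Mt2 (3.63), which bind zinc and copper, rose as well. The rises of the list ran from 0.23 to 3.63, the smallest being that of Aldh1l1 (885, 895 and 813, then 1038, 1099, 940.1 and 990.1).

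Gfap and Aqp4, widely used as astrocyte markers, were not among the rises. Gfap, the intermediate filament of astrocytes, read 1273, 1129 and 665 at P7 and 769, 719, 733 and 739 at P14 (-0.41, adjusted p 0.282), so that the P14 libraries were close to each other and lay within the wide P7 range. Aqp4, the water channel of astrocyte endfeet, read 11332, 11125 and 9715 and then 9037, 9085, 8809 and 9473 (-0.23, adjusted p 0.148). Quantile normalization, unlike TMM scaling, brought it past the threshold as lower (-0.86, adjusted p 1.21e-04). It had stood at 1295, 1847 and 2045 at P1, so its change in the first week was 2.66 and the second-week change differed from it by -2.89 (adjusted p 6.02e-06). Omission of 1 library brought past the threshold Aqp4 (adjusted p 0.0187 without P1 replicate 1).

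**Figure D2:**
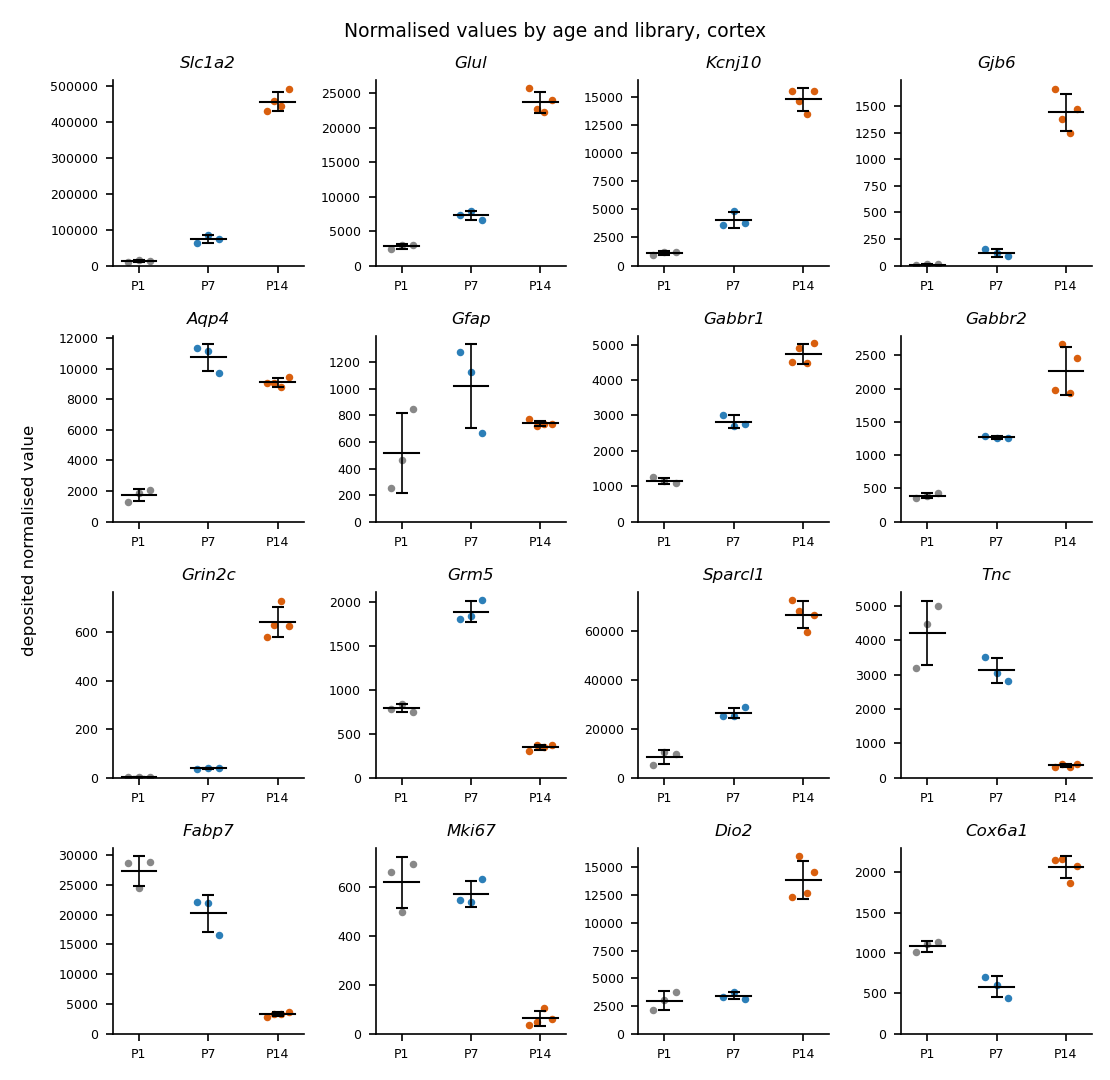
Deposited normalised values (linear y axes, each starting at 0) of 16 genes by age in cortex, where each point is 1 library and the bar gives the mean ± SD (n = 3 at P1 and P7, n = 4 at P14). Slc1a2, Glul, Kcnj10, Gjb6, Grin2c, Sparcl1, Dio2 and Cox6a1 are highest at P14, Grm5 peaks at P7, Tnc, Fabp7 and Mki67 are low at P14, and Aqp4 and Gfap did not pass between P7 and P14.

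Potassium and ion handling changed in both directions: 12 of 20 members tested rose, 6 fell and 2 did not pass (median 0.63). Of all tested genes 18.6% rose and 31.3% fell, so the share of falls is near that of all genes. Kcnj10, encoding Kir4.1, the inward rectifier through which astrocytes take up potassium, read 3573, 4825 and 3756 at P7 and 15495, 14606, 13444 and 15560.2 at P14 (1.88, SE 0.12, adjusted p 6.44e-08). Kcnk1, encoding the 2-pore channel TWIK-1, read 69.8, 93.6 and 129 and then 1203, 1085, 905 and 1049 (3.47). The sodium pump subunit Atp1b2, typical of astrocytes, read 6299.8, 6127 and 4893 and then 18957, 13732, 16600.3 and 19354 (1.57), and Fxyd1, a pump regulator, rose by 2.09. The fall of Atp1b1 (-0.42), a pump subunit also used by neurons, rests on overlapping groups and did not pass under TMM scaling. Slc12a2, the chloride-loading transporter NKCC1, read 323, 336 and 351 and then 149, 240.2, 174 and 207 (-0.82). Fxyd6 (-2.01), a pump regulator, and Kcnk10 (-1.19), a 2-pore channel, also fell. Omitting a single library ended the call of Atp1b1 (adjusted p 0.0542 without P7 replicate 1).

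In the list of transmitter uptake and receptors, 15 of 33 members rose, 5 fell and 13 did not pass (median 0.38). Among all tested genes 18.6% rose and 31.3% fell, so falls were less frequent in this list than among all genes. Both GABA-B subunits rose. Gabbr1 read 3023, 2704 and 2752 at P7 and 4518, 4901, 4474 and 5041 at P14 (0.74, SE 0.08, adjusted p 9.75e-06), and Gabbr2 read 1288, 1260.3 and 1256 and then 1975, 2675, 1943 and 2457 (0.82, SE 0.11, adjusted p 6.10e-05). No P14 library of either gene overlapped P7, and both had risen more in the first week, by 1.28 and 1.70. The second-week change of Gabbr1 differed from the first-week change by -0.54 (adjusted p 0.0196) and that of Gabbr2 by -0.88 (adjusted p 0.008).

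Among the members that rose were 3 enzymes that handle transmitters after uptake. Glul, glutamine synthetase, which turns glutamate into glutamine, read 7331, 7907 and 6673 at P7 and 25781, 22801, 22308 and 24039 at P14 (1.70). Abat, GABA transaminase, read 1799.7, 2088 and 1812 and then 5477, 5432, 5090.1 and 5565 (1.51), and Maob, monoamine oxidase B, read 79.1, 85.1 and 77.04 and then 506, 566, 408 and 395 (2.51). In all 3 genes the lowest P14 library stood well above the highest P7 library. The GABA transporter Slc6a11 (GAT-3) did not pass (4877, 4915 and 4312, then 4145, 4260.0, 3968 and 4504, -0.15, adjusted p 0.117). The glutamine transporter Slc38a3 did not pass either (-0.04, adjusted p 0.832), and for both genes the groups overlapped. A call was gained with 1 library left out for Slc6a11 (adjusted p 0.0475 without P7 replicate 3). Slc6a11 also passed as lower under quantile normalization (-0.63, adjusted p 6.23e-06).

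Among glutamate receptor genes, Grin2c rose and Grm5 and Gria2 fell. Grin2c, the GluN2C subunit of NMDA receptors, read 36.9, 40.98 and 38.97 at P7 and 579.6, 628, 728 and 627 at P14 (4.002, SE 0.17, adjusted p 5.95e-09). Grm5, the metabotropic receptor mGluR5, which signals through Gq and calcium in young astrocytes, read 1806, 1832 and 2019 and then 303, 367, 344 and 369 (-2.45, SE 0.09, adjusted p 2.75e-09). It had risen by 1.26 between P1 and P7, and the second-week change differed from the first by -3.71 (adjusted p 8.58e-08). Gria2, an AMPA receptor subunit, read 1309.8, 1412 and 1861 and then 740.0, 738, 745 and 697 (-1.05). The amino acid transporter Slc1a4 (-1.04), the glycine transporter Slc6a9 (-1.29) and the endothelin receptor Ednrb (7318, 7872 and 6287, then 3429, 3605, 3616 and 3597, -1.001) were lower at P14, and none of their groups overlapped.

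Secreted regulators of synapses and the matrix around them also split, with 14 of 25 members higher, 5 lower and 6 not passing (median 0.35). Among all tested genes 18.6% were higher and 31.3% lower, so falls were less frequent in this list than among all genes. Sparcl1 (hevin), which bridges presynaptic and postsynaptic adhesion proteins, read 25322, 25166 and 28872 at P7 and 72350.4, 68046, 59350.0 and 66441 at P14 (1.33, adjusted p 1.08e-04). Sparc, which opposes hevin at synapses, read 3773, 3632 and 2741 and then 7234, 8462, 7665 and 8491 (1.25). Mertk, a receptor through which astrocytes engulf synaptic material, read 225, 267 and 281 and then 1167, 1024, 943 and 1081 (2.03). All 3 were separated between the ages. Gpc5, a glypican, rose by 1.56, while Gpc4, a glypican that recruits AMPA receptors, fell by 0.72 (159, 162 and 153, then 117, 101, 80.7 and 87.2). Thbs4, a thrombospondin, passed (2.12, adjusted p 0.0327) with scattered P14 values of 178, 24.5, 105 and 59.7 against 24.8, 17.8 and 9.06 at P7. The call was lost with 1 library left out for Thbs4 (adjusted p up to 0.123 without P7 replicate 2 or 3 or P14 replicate 1, 3 or 4).

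Tnc, Vcan and Sema3a fell most in this list. Tnc, the matrix protein tenascin C, read 3513, 3054 and 2815 at P7 and 318, 397, 321 and 398 at P14 (-3.12, SE 0.15, adjusted p 9.50e-09). Vcan, versican, read 2208, 2194 and 2415 and then 318, 403, 453 and 443 (-2.50), and Sema3a, a repulsive guidance molecule, read 88.9, 47.9 and 112 and then 7.57, 5.03, 15.1 and 5.71 (-3.20). Every P14 value of these genes was below every P7 value, and P7 replicate 2 was lowest of its group for Sema3a, as for the neuron markers. Ncan, neurocan, was -0.45 on the deposited scale (adjusted p 0.00824) and did not pass under TMM scaling. Tnr, tenascin R, did not pass (-0.48, adjusted p 0.0545). Lgi1 (0.31, adjusted p 0.61) spread from 17.8 to 133 within P7. With P14 replicates 1 and 2 only, 9 members of the list were higher in place of 14. Without 1 library the adjusted p passed for Tnr (adjusted p down to 0.0019 without P7 replicate 1 or P14 replicate 2).

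Most genes of radial glia and progenitors fell. Of 23 members tested, 15 were lower, 5 higher and 3 did not pass (median -1.18). By comparison 31.3% of all tested genes were lower and 18.6% higher, so the share of rises is near that of all genes. Fabp7, the brain lipid-binding protein of radial glia, read 22188, 21903 and 16652 at P7 and 2817, 3318, 3409.9 and 3737 at P14 (-2.60, SE 0.12, adjusted p 9.50e-09). Igf2bp2, an RNA-binding protein of fetal tissues, read 18.5, 15.5 and 13.6 and then 0.378, 0.629, 4.10 and 3.12 (-2.67). Cdon, a Hedgehog co-receptor, read 99.2, 80.4 and 51.7 and then 8.32, 31.4, 11.7 and 4.15 (-2.67). The groups of all 3 were separated. The Notch ligand Dll1 fell from low values of 19.04, 24.7 and 9.06 (-2.59). Lhx2, a transcription factor, read 567, 604 and 440.5 and then 1408, 1304, 1248 and 1448 (1.34). The transcription factors Emx2 (0.78) and Nr2e1 (Tlx, 0.69) rose too, as did the glutamate transporter Slc1a3 (0.52) and the engulfment protein Mfge8 (0.27, adjusted p 0.032). Under quantile normalization Slc1a3 read -0.06 and Mfge8 did not pass. Sox2, another transcription factor, did not pass (560.3, 473 and 426, then 478, 482, 443 and 363, -0.14), nor did Hes5 (-0.04). Single libraries carried the call of Mfge8 (adjusted p up to 0.113 without P7 replicate 2 or 3 or P14 replicate 1 or 4).

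Genes of cell division were low at P14. All 28 mitosis genes tested fell, with a median of -2.48, and 22 of 27 DNA replication genes fell while 5 did not pass (median -1.23). Mki67, the proliferation marker Ki-67, read 545, 539 and 634 at P7 and 37.5, 49.1, 106 and 61.3 at P14 (-3.26, SE 0.26, adjusted p 6.16e-07). Ccna2, cyclin A2, read 132, 121 and 134 and then 5.67, 1.89, 24.9 and 6.23 (-4.06). P14 replicate 3 was the highest P14 library for both, and its values still lay below those of P7. Ccnb1, cyclin B1, read 49.05, 51.8 and 59.8 and then 0.378, 0, 3.15 and 8.31 (-4.33), and Hmmr, a spindle protein, read 42.7, 55.7 and 47.1 and then 1.51, 1.89, 12.3 and 5.19 (-3.32). Bub1, a spindle checkpoint kinase, fell by 3.28. For members close to 0 at P14 the size of the log2 difference depends on the added 1.

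In DNA replication, Mcm6 and Mcm5, subunits of the MCM helicase, had the largest falls. Mcm6 read 94.1, 85.8 and 101 at P7 and 7.19, 11.9, 21.4 and 12.98 at P14 (-2.80, adjusted p 3.89e-06), Mcm5 25.97, 24.7 and 25.8 and then 3.78, 3.77, 1.58 and 4.15 (-2.67). Mcm2 (-2.43), the flap endonuclease Fen1 (-2.50) and the replication factor Gins1 (-2.07) fell too. The polymerase subunit Pola2 (-0.63, adjusted p 0.248) and the chromatin assembly factor Chaf1a (-0.27, adjusted p 0.499) did not pass. The replication list had a median of -0.35 in the first week, when that of mitosis genes was 0.01. The difference between the weeks passed for 18 of the 28 mitosis genes and 6 of the 27 replication genes, each more negative in the second week, where 13.2% of all genes were.

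Because the division genes moved together, the sequence around their starts (RefSeq, GRCm38.p6, a patch release of the assembly called mm10, 250 bases before to 50 after each start) was searched on both strands for letters known from cell cycle promoters. The CHR element (TTTGAA or TTCGAA), through which the DREAM complex acts on late cell cycle genes, was present in 84% of 25 promoters of 24 mitosis genes and in 19.2% of all 32851 promoters. CCAAT, the NF-Y letters, was present in 88% of the mitosis promoters and 37.4% of all. TTTNGCGC, an E2F site, was present in 27.6% of 29 promoters of 25 DNA replication genes, 8% of the mitosis promoters and 1.38% of all. CHR was found in 20.7% and CCAAT in 55.2% of the replication promoters. In the printed promoters the only overlapping matches are a pair of E2F matches on opposite strands. Shown are the 2 mitosis promoters and the 1 replication promoter of the genes with the largest falls that held a match, on their own strand, with the matched letters in capitals: Ccnb1 (chr13:100786437-100786736, minus strand), Hmmr (chr11:40733388-40733687, minus strand) and Mcm6 (chr1:128359656-128359955, minus strand).
Ccnb1: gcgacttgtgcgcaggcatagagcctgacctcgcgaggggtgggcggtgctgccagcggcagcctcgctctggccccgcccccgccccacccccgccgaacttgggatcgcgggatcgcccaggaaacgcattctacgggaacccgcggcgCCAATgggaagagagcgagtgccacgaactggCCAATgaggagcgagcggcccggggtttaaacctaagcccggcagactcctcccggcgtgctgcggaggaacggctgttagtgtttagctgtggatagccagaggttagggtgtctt
Hmmr: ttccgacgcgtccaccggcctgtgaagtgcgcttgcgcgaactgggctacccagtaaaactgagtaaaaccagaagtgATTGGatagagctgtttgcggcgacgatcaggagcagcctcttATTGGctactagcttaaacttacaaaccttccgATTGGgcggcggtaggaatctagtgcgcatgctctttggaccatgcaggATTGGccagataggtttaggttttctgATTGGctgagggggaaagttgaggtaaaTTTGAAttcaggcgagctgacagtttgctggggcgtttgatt
Mcm6: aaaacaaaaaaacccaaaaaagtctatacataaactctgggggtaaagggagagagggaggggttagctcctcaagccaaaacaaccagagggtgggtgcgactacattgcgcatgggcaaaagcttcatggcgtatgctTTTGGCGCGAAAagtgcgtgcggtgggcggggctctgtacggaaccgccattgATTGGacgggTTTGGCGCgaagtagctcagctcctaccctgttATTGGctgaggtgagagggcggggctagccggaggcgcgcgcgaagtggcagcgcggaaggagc
The Ccnb1 promoter held CCAAT beginning 99 and 67 bases before the start. The Hmmr promoter held ATTGG, the reverse complement of CCAAT, at 5 places and TTTGAA 8 bases past the start. In the Mcm6 promoter TTTGGCGC and its overlapping partner on the other strand began 110 and 106 bases before the start and a further E2F match 47 bases before it, with ATTGG at 2 places. A match describes these letters only and says nothing of binding in these cells.

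Cholesterol synthesis genes moved in both directions. Of 24 members, 6 rose, 6 fell and 12 did not pass (median 0.04), and under TMM scaling 8 rose and 1 fell. Over all tested genes 18.6% were higher and 31.3% lower, so the counts of this list are near the background. The mature oligodendrocyte marker sum ran from 1084 to 1242 at P7 and 16088 to 26905 at P14. Without P7 replicate 1 the rises numbered 2, and the falls numbered 2 without P7 replicate 2, 1 without P7 replicate 3 and 3 with P14 replicates 1 and 2 only. Msmo1, a sterol demethylation enzyme, read 469.7, 536 and 628 at P7 and 791, 768, 786 and 752 at P14 (0.52). Pmvk (0.63), Mvd (0.59) and Mvk (0.53), kinases and a decarboxylase of the mevalonate steps, rose, as did Hsd17b7 (0.67). Dhcr7, which makes cholesterol from its direct precursor, read 332, 365 and 359.8 and then 227, 221, 214 and 216 (-0.68), with separated groups. Acat2 (-0.53), Nsdhl (-0.33) and Stard4 (-0.70) were lower on the deposited scale and did not pass under TMM scaling. Hmgcs1 (0.07, adjusted p 0.585) and Idi1 (0.05, adjusted p 0.758) did not pass. The letters TCACNCCAC of the sterol response element were found in 5% of 20 promoters of 17 of these genes and 1.24% of all, and no promoter of a changed member that could be shown held them. A call was lost in fits of all but 1 library for Mvd (adjusted p 0.0544 without P7 replicate 1), Mvk (adjusted p 0.0515 without P7 replicate 1) and Hsd17b7 (adjusted p up to 0.151 without P7 replicate 1 or P14 replicate 2). Dropping 1 library ended the call of Acat2 (adjusted p up to 0.0761 without P7 replicate 2 or 3), Nsdhl (adjusted p up to 0.118 without P7 replicate 2 or 3 or P14 replicate 2 or 4) and Stard4 (adjusted p up to 0.063 without P7 replicate 2 or 3 or P14 replicate 1).

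In fatty acid synthesis and lipid export, 9 of 18 members rose, 4 fell and 5 did not pass (median 0.43). By comparison 18.6% of all tested genes rose and 31.3% fell. Clu, clusterin, read 2725, 3142 and 2467 at P7 and 15511, 10545, 11273 and 12245 at P14 (2.15, adjusted p 4.76e-08). Apoe, the main lipoprotein of the brain, read 6309.6, 7047 and 4955 and then 16113, 17978, 14598 and 16881 (1.44). Lcat, which esterifies cholesterol on lipoproteins, read 246, 211 and 127 and then 672, 514, 520.3 and 638 (1.63). The lipid exporters Abca1 and Abcg1 fell. Abca1 read 2781, 2721 and 2557 and then 967, 1214, 1221 and 1212 (-1.23), and Abcg1 67.5, 44.1 and 30.4 and then 7.19, 5.03, 20.5 and 21.3 (-1.89). The desaturases Fads1 (1.08) and Scd1 (0.75, but 0.11 with an adjusted p of 0.558 under quantile normalization) rose, acetyl-CoA carboxylase Acaca fell (-0.60), and Fasn, fatty acid synthase, did not pass (1598, 1328 and 1403, then 1508, 1389, 1379 and 1298, -0.05). Elovl6 was -0.37 and Fads2 0.31, and TMM scaling ended the first call and brought the second past the threshold. The oligodendrocyte sums given for cholesterol synthesis also moved with these rises. In fits without 1 library the adjusted p no longer passed for Elovl6 (adjusted p up to 0.172 without P7 replicate 2 or 3 or P14 replicate 1, 3 or 4). Omission of 1 library brought past the threshold Fads2 (adjusted p 0.0323 without P1 replicate 1).

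In fatty acid oxidation 14 of 19 members rose and 5 did not pass (median 0.82). Acsl6, a long-chain acyl-CoA synthetase, read 634, 804 and 736 at P7 and 3261, 3138, 2582 and 2872 at P14 (2.03). Hadhb, the thiolase subunit of the trifunctional protein, read 520.5, 629 and 518 and then 1695, 1473, 1247 and 1343 (1.37). Etfb (1.38), Acadvl (1.37) and Acadm (1.04), an electron carrier and acyl-CoA dehydrogenases, rose too. Cpt1a, the entry step into mitochondria, did not pass (582, 699 and 635, then 748, 642, 665 and 725, 0.12), nor did Acadl (0.10), and TMM scaling brought Cpt1a past the threshold.

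In glycolysis, lactate and glycogen, 19 of 26 members rose, 1 fell and 6 did not pass (median 0.89). Aldoc, the astrocytic aldolase, read 4070.2, 4259 and 3389 at P7 and 22277, 20639.9, 17910.2 and 19952 at P14 (2.37, SE 0.11, adjusted p 9.50e-09). Pygm, a glycogen phosphorylase, which releases glucose units from glycogen, read 18.5, 20.1 and 20.8 and then 323, 315, 225 and 273 (3.76). Phosphofructokinase Pfkm read 297, 329 and 288 and then 995, 887, 849 and 871 (1.56). Pdk2, a kinase that restrains pyruvate dehydrogenase (1.54), and Tpi1, triose phosphate isomerase (1.32), rose as well. The single fall was in Pfkfb3, which makes the allosteric activator of phosphofructokinase (304, 332 and 293, then 150.2, 119, 184 and 157, -1.03, adjusted p 4.71e-05). The glucose transporter Slc2a1 did not pass (0.69, adjusted p 0.101), with its highest P14 value in replicate 3, which was also the P14 library with the highest endothelial marker sum (1202). Pfkp did not pass (0.61), and TMM scaling brought Slc2a1 past the threshold (adjusted p 0.0416). A call was gained with 1 library left out for Slc2a1 (adjusted p 0.0157 without P1 replicate 1) and Pfkp (adjusted p 0.0122 without P7 replicate 3).

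Nearly all respiratory chain genes rose: 36 of 37 subunits were higher, 0 were lower, and 1 (Ndufa1) did not pass (0.25, adjusted p 0.291). The median was 1.09. Cox6a1, a subunit of cytochrome c oxidase, read 699, 607 and 440.0 at P7 and 2153, 2169, 1865 and 2079 at P14 (1.85, adjusted p 2.25e-07). Cox4i1, another subunit of that enzyme, read 392, 393 and 380.2 and then 1128, 1182, 997 and 1053 (1.48). Ndufv1, of complex I, read 110.2, 96.6 and 83.4 and then 228, 262, 234 and 239 (1.31). The P14 libraries lay above all P7 libraries in each, and Cox8a (1.35) and Ndufs7 (1.30) followed. Over the same libraries the mature oligodendrocyte sum ran from 1084 to 1242 at P7 and 16088 to 26905 at P14, the microglia sum from 782 to 2441 at P7 and 2103 to 4661 at P14 and the neuron sum from 4914 to 10361 at P7 and 2928 to 4352 at P14. Small subunit genes have processed pseudogenes, and how reads shared with them were counted is not given in the sources used here.

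**Figure D3:**
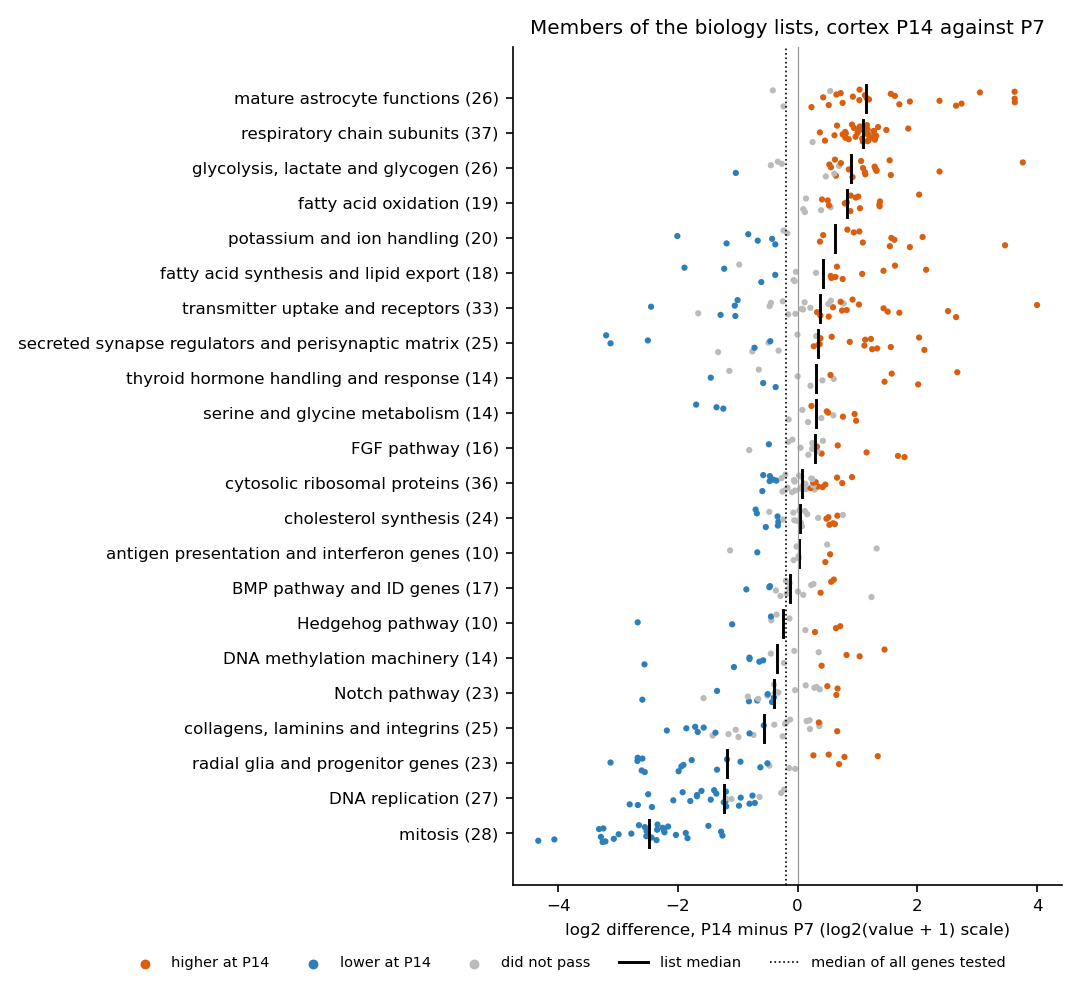
Log2 difference P14 minus P7 on the log2(value + 1) scale (x axis) for each tested member of the 22 biology lists (y axis, number tested in brackets), with points orange where higher at P14, blue where lower and grey where not passed, a black bar for the list median and a dotted line for the median of all genes (-0.19). The 37 respiratory chain subunits gather near their median of 1.09, and all 28 mitosis genes lie left of 0.

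Serine and glycine metabolism was mixed, with 6 of 14 members higher, 3 lower and 5 not passing (median 0.32). The shares over all tested genes were 18.6% higher and 31.3% lower. Psat1, the transaminase of serine synthesis, read 618, 794 and 719 at P7 and 1424, 1456, 1287 and 1415 at P14 (0.98). Gldc and Gcsh, parts of the glycine cleavage system that is enriched in astrocytes, rose by 0.76 and 0.95. Dld (0.51), the lipoamide dehydrogenase of the same system, and Srr (0.49), serine racemase, rose as well. The 3 members that fell are mitochondrial folate enzymes. Aldh1l2 read 173, 146 and 126 and then 37.8, 50.3, 55.8 and 37.9 (-1.69). Mthfd1l (-1.35) and Mthfd2 (-1.24) fell from low values, and the call of Mthfd2 was lost under TMM scaling. Phgdh, the first enzyme of serine synthesis, did not pass on the deposited scale (0.18, adjusted p 0.134) and passed under TMM scaling, and Psph did not pass (-0.15). Without P7 replicate 1 the list had 1 fall. Omitting a single library ended the call of Mthfd1l (adjusted p 0.0789 without P7 replicate 1) and Mthfd2 (adjusted p up to 0.172 without P1 replicate 1, 2 or 3 or P7 replicate 1, 2 or 3 or P14 replicate 1 or 3).

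Cytosolic ribosomal protein genes stayed near the middle of all genes. Of 36, 9 rose, 6 fell and 21 did not pass (median 0.07), and under TMM scaling 17 rose and 3 fell. The shares over all tested genes on the deposited scale were 18.6% higher and 31.3% lower. Rps15 read 283, 239.7 and 218 at P7 and 418, 480.5, 495 and 460.0 at P14 (0.91), and Rpl5 1513, 1658 and 1452 and then 965, 1110.0, 962 and 1067 (-0.59). Rplp1 (0.75), Rps14 (0.66), Rpl37 (0.46) and Rpl18 (0.42) rose and Rps24 (-0.57) and Rps4x (-0.47) fell, all encoding ribosome subunit proteins. Rps19 (-0.46) and Rps7 (-0.41) did not pass under TMM scaling, and Rpl4 (-0.25) and Rpsa (-0.20) did not pass on the deposited scale. Without P7 replicate 3 the count of rises was 4, without P14 replicate 4 it was 5, and without P7 replicate 1 the count of falls was 3. These genes have many processed pseudogenes, so their values are uncertain to the extent that reads were shared. The call was lost with 1 library left out for Rpl18 (adjusted p up to 0.206 without P7 replicate 3 or P14 replicate 1, 2 or 4), Rps19 (adjusted p 0.0886 without P7 replicate 1) and Rps7 (adjusted p up to 0.156 without P7 replicate 1 or 2 or P14 replicate 1 or 4). Without 1 library the adjusted p passed for Rpl4 (adjusted p down to 0.0219 without P7 replicate 3 or P14 replicate 2) and Rpsa (adjusted p 0.00903 without P7 replicate 3).

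In the Notch pathway 3 of 23 members rose, 7 fell and 13 did not pass (median -0.39), and TMM scaling left 3 falls. These counts are near the shares over all tested genes, 18.6% higher and 31.3% lower. Notch2, a receptor, read 539.5, 666 and 615 at P7 and 377, 282, 373 and 353 at P14 (-0.81). Target genes moved apart: Hes1 read 55.4, 50.3 and 43.5 and then 24.6, 16.98, 25.2 and 11.9 (-1.34), while Hey1 read 284, 228 and 208 and then 361, 359.7, 382 and 415 (0.67). Nrarp, a feedback inhibitor (0.50), and Rfng, a fringe glycosyltransferase (0.65), rose. Notch3 (-0.67) and Rbpj (-0.50), the DNA-binding partner of Notch, did not pass under TMM scaling, and Maml2, a coactivator, did not pass (-0.32). Single libraries carried the call of Hes1 (adjusted p up to 0.0716 without P7 replicate 1 or P14 replicate 4) and Notch3 (adjusted p up to 0.0956 without P7 replicate 1 or 2). Omission of 1 library brought past the threshold Maml2 (adjusted p down to 0.0196 without P1 replicate 1 or 3 or P14 replicate 4).

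In the Hedgehog pathway 3 of 10 members rose, 3 fell and 4 did not pass (median -0.24). Gli3, a transcription factor of the pathway that acts mainly as a repressor, read 549.9, 631 and 595 at P7 and 1034, 969, 915 and 960.0 at P14 (0.71). Gli2 (0.64) and the receptor Ptch1 (0.29) passed with smaller margins, and 1 member rose without P7 replicate 3. Cdon, described above, fell, and Hhip, a decoy that binds Hedgehog ligands, did too (91.7, 85.1 and 97.4, then 40.9, 60.4, 37.2 and 34.8, -1.09). Sufu (-0.44), a negative regulator, did not pass under TMM scaling, and Smo (0.13) and Gas1 (-0.13) did not pass. In the BMP list 3 of 17 members rose, 3 fell and 11 did not pass (median -0.13), and 7 fell with no filter on low values. Over all tested genes 18.6% were higher and 31.3% lower, with a median of -0.19. The falls of the Hedgehog list and the rises of the BMP list are near these shares. The inhibitors of differentiation Id4 (181, 188 and 139, then 308, 221, 222 and 286, 0.61) and Id2 (0.56) and the receptor Bmpr1b (0.39) rose. The activin receptor Acvr2a read 241, 207 and 292 and then 150.2, 135, 155 and 105 (-0.85), and the signal transducers Smad5 (-0.46) and Smad4 (-0.47) were lower, the latter not under TMM scaling. Receptors Bmpr2 (0.01) and Bmpr1a (-0.18) did not pass. A call was lost in fits of all but 1 library for Gli2 (adjusted p 0.0603 without P7 replicate 3), Ptch1 (adjusted p up to 0.167 without P7 replicate 1 or 3 or P14 replicate 2 or 4) and Sufu (adjusted p up to 0.116 without P7 replicate 1, 2 or 3 or P14 replicate 2 or 3).

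In the FGF pathway 6 of 16 members rose, 1 fell and 9 did not pass (median 0.29), with 10 higher and 0 lower under TMM scaling. On the deposited scale 18.6% of all tested genes were higher and 31.3% lower. The ligand Fgf1 read 402, 811 and 659 at P7 and 2177, 1871, 1978 and 2282 at P14 (1.79, SE 0.18, adjusted p 4.09e-06). Fgf2, another ligand, read 13.8, 17.01 and 7.70 and then 48.05, 33.96, 48.9 and 36.9 (1.68), and the receptor Fgfr3 881, 977 and 905 and then 2204, 1994, 1801 and 2227 (1.15). The groups of Fgf1 and Fgfr3 were separated, and the receptor Fgfr2 rose less (0.40). Spred2, an inhibitor of the pathway, rose (0.67), and Etv1, a transcription factor downstream, was lower (-0.48) but not under TMM scaling. Etv5 (-0.16) and Fgfr1 (0.18) did not pass. Without P7 replicate 3, or with P14 replicates 1 and 2 only, 3 members rose, and without P14 replicate 3, 2 fell. Dropping 1 library ended the call of Fgf2 (adjusted p 0.0653 without P7 replicate 3) and Fgfr2 (adjusted p 0.0622 without P7 replicate 3).

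Genes of thyroid hormone handling included some of the larger rises, and 5 of 14 members rose, 3 fell and 6 did not pass (median 0.32). Over all tested genes 18.6% were higher and 31.3% lower. Dio2, the deiodinase by which astrocytes make the active hormone T3, read 3299, 3772 and 3185 at P7 and 12294, 15994, 12646 and 14522 at P14 (2.02, SE 0.16, adjusted p 5.30e-07). Klf9, a classical T3 response gene, read 272, 257 and 339 and then 923, 706, 814 and 1015 (1.57), and Hr, another, read 6.35, 3.09 and 13.1 and then 39.7, 64.1, 35.95 and 52.4 (2.67). All 3 groups were separated. The 2 receptor genes moved in opposite directions, Thrb from 138, 118 and 146 to 382, 358, 386 and 342 (1.45) and Thra from 324, 237 and 302 to 201, 168, 174 and 228 (-0.57). The corepressor Ncor1 (0.00) and the hormone transporter Slco1c1 (0.22) did not pass, and Rxrg fell from low, overlapping values (-1.45), a call that TMM scaling ended. The list had 1 fall without P7 replicate 1, P7 replicate 3 or P14 replicate 4. In fits without 1 library the adjusted p no longer passed for Rxrg (adjusted p up to 0.2 without P1 replicate 2 or 3 or P7 replicate 1 or 3 or P14 replicate 4).

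The DNA methylation machinery moved in both directions. Of 14 members, 4 rose, 6 fell and 4 did not pass (median -0.34), where 18.6% of all tested genes rose and 31.3% fell. Dnmt1, which copies methylation after replication, read 186, 192 and 241 at P7 and 79.1, 81.1, 123 and 115 at P14 (-1.06), and its partner Uhrf1 25.97, 40.2 and 33.99 and then 2.65, 2.52, 3.47 and 18.2 (-2.56). Dnmt3a, the de novo methyltransferase, read 879.9, 874 and 866 and then 1124, 1139, 1189.5 and 1166 (0.40, adjusted p 5.28e-04). Its P14 libraries lay between 1124 and 1189.5, all above P7. The methyl-DNA binding proteins split, with Mbd2 (1.04) and Mbd3 (0.82) up and Mbd1 (-0.80) down. The demethylation enzyme Tet2 fell (-0.64), Tet1 (-0.23) and Zbtb4 (0.35) did not pass, and Gadd45g rose (1.45). Omitting a single library ended the call of Mbd1 (adjusted p 0.0778 without P7 replicate 3). A call was gained with 1 library left out for Tet1 (adjusted p 0.0406 without P14 replicate 3) and Zbtb4 (adjusted p down to 0.025 without P1 replicate 1 or 3).

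Among collagens, laminins and integrins 2 of 25 members rose, 8 fell and 15 did not pass (median -0.56), and under TMM scaling 4 rose and 7 fell. The share that fell is near that of all tested genes (31.3%). Col11a1 read 143, 160.0 and 147 at P7 and 49.6, 14.5, 42.9 and 34.3 at P14 (-2.18). Laminin chains Lama4 (175, 123 and 140.0, then 19.7, 27.04, 97.4 and 44.6, -1.86), Lamb1 (-1.71) and Lama5 (-1.57) fell. For Lama4 and Lamb1 the highest P14 value was that of replicate 3, the library with the most endothelial marker signal, and vascular cells make these laminins, but their part was not tested. Col9a1 fell from low values (-1.67) and Col9a3 rose (0.66). Itgav, an integrin subunit, rose (1947, 2216 and 1923, then 2532, 2766, 2377 and 2705, 0.36), and Itgb8 (0.20) and dystroglycan Dag1 (-0.12) did not pass. Of antigen presentation and interferon genes 10 of 20 reached the filter, 2 rose, 1 fell and 7 did not pass (median 0.02). The share of these that rose is near that of all tested genes (18.6%). B2m, the light chain of class I antigen-presenting molecules, rose (0.46), and Stat2 (-0.67) was lower, though Stat2 not under TMM scaling. No member rose without P7 replicate 1. The genes H2-K1 (-0.06), a member of a multigene family, and Tapbp (0.02) did not pass. Microglia marker sums ran from 782 to 2441 at P7 and 2103 to 4661 at P14. The call was lost with 1 library left out for Col9a3 (adjusted p 0.0536 without P7 replicate 2), Itgav (adjusted p up to 0.0774 without P7 replicate 1 or 3 or P14 replicate 2 or 4) and B2m (adjusted p up to 0.201 without P7 replicate 1 or 3 or P14 replicate 1, 3 or 4). Single libraries carried the call of Stat2 (adjusted p up to 0.128 without P7 replicate 1 or 3 or P14 replicate 1 or 4).

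Lists linked to astrocyte reactivity and to recent stimulation had falls and no rises at P14. Of 11 reactivity genes tested 6 fell and 5 did not pass (median -1.57). Values summed over all 23 listed reactivity genes, tested or not, were 3069.7, 3061 and 2116 at P7 and 1299, 1217, 1558 and 1264 at P14. Emp1, a membrane protein of injured astrocytes, read 118, 98.97 and 107 and then 1.89, 1.89, 14.2 and 0.519 (-4.87), and Vim, vimentin, read 1130.4, 1079 and 832 and then 211, 233, 366 and 227 (-1.99). P14 replicate 3 was the highest of its group for both, and it also had the highest P14 sums of endothelial (313, 163, 1202 and 373 over the P14 libraries) and mural and fibroblast markers (792, 789, 1701 and 942). The mural and fibroblast sum was 1932, 2107 and 1444 at P7, and the part of vascular RNA in these falls was not tested. Ptx3 (-3.28), S1pr3 (-1.85) and Ggta1 (-1.74) fell, and Osmr did not pass (-0.63). Of 17 immediate early genes tested 9 fell and 8 did not pass (median -1.79). Sums over all 19 listed were 2534, 3393 and 1656 at P7 and 745, 638, 1493 and 655 at P14. Fos read 507, 626 and 339.9 and then 47.7, 19.5, 144 and 46.2 (-3.22, adjusted p 2.67e-04), and Btg2 read 106, 171 and 81.1 and then 27.996, 10.7, 34.4 and 30.6 (-2.21). Egr2 (-3.03), Npas4 (-2.58) and Ier2 (-2.53) fell from low values, whereas Jun (283, 319 and 183, then 216, 269.8, 307 and 223, -0.02) and Dusp1 (-0.74) did not pass. Dissociation can itself induce these genes, and whether the ages differed in handling was not tested. A call was lost in fits of all but 1 library for S1pr3 (adjusted p up to 0.0872 without P7 replicate 1 or 2). Without 1 library the adjusted p passed for Osmr (adjusted p 0.0466 without P1 replicate 1) and Dusp1 (adjusted p 0.0258 without P14 replicate 3).

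Markers of other cells changed as follows. Of 26 neuron markers 21 fell, 1 rose and 4 did not pass (median -2.64). Dcx, doublecortin of migrating neurons, read 1333, 901 and 1270.3 at P7 and 66.2, 46.5, 60.2 and 48.3 at P14 (-4.37). Tubb3 (-4.24), Neurod6 (-4.06) and Slc17a6 (-4.25) fell. The 1 that rose was Camk2a, a kinase of mature excitatory neurons (383, 190.2 and 657, then 1673, 1552, 1408 and 797, 1.84), and Nrgn (0.29) and Nefl (-0.10) did not pass.

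Of 14 mature oligodendrocyte markers 13 rose and 1 did not pass (median 3.001). Mbp, myelin basic protein, read 123, 200.3 and 209 at P7 and 10638, 20290.2, 15227 and 17735 at P14 (6.48). Mobp (0.577, 3.87 and 0.906, then 1015, 1313, 1094 and 1388), Mag (0.577, 2.32 and 3.17, then 59.4, 38.4, 29.01 and 30.1) and Mal (3.84) rose from a few reads, while Aspa did not pass (0.55). Of 11 precursor markers 1 rose, Bcas1 (2.16), 5 fell and 5 did not pass (median -0.33). By comparison 18.6% of all tested genes rose and 31.3% fell. Pdgfra read 542, 709.8 and 433 and then 109, 89.3, 247 and 139.7 (-2.02), Lhfpl3 (-1.70) and Olig2 (-1.34) fell, Cspg4 (-1.23) and Olig1 (-0.33) lost the call under TMM scaling, and Gpr17 (-0.12) and Sox10 (0.04) did not pass. Without P7 replicate 1, P7 replicate 2 or P14 replicate 1, 3 precursor markers fell, and without P1 replicate 2 or 3, 2 rose. Dropping 1 library ended the call of Cspg4 (adjusted p up to 0.097 without P7 replicate 1 or 2 or P14 replicate 1) and Olig1 (adjusted p up to 0.0999 without P7 replicate 1 or 2 or P14 replicate 1).

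Of 16 microglia markers 14 rose and 2, Cd68 (0.83) and Trem2 (0.87), did not pass (median 1.45). Itgam read 30.004, 174 and 53.5 at P7 and 285, 606, 309 and 525 at P14 (2.62), with P7 replicate 2 highest of its group, and Tmem119 (2.82), Siglech (2.25), C1qa (1.94) and C1qc (1.67) rose. Without P7 replicate 1 or without P7 replicate 3, 8 microglia markers rose, and with P14 replicates 1 and 2 only 7 did. Of 13 endothelial markers 1, Itm2a, was lower (-1.38, lost under TMM scaling), and Flt1 (-0.23) and Kdr (-1.16) did not pass. The endothelial count ran from 0 to 3 with 1 library left out (3 without P1 replicate 1 or P14 replicate 3) and was 4 with P14 replicates 1 and 2 only. Endothelial sums over all 14 listed markers were 709.7, 573 and 571 at P7 and 313, 163, 1202 and 373 at P14. Of 11 mural and fibroblast markers 2, Pdgfra and Notch3, were lower, while Col1a2 (-0.25) and Pdgfrb (-0.03) did not pass. Pdgfra is counted among the precursor markers too, and Notch3 in the Notch pathway. Of all tested genes 31.3% were lower, a larger share than in the endothelial or the mural and fibroblast list. The mural and fibroblast count was 4 without P1 replicate 1 and 1 without P7 replicate 1 or 2. None of the 3 ependymal and choroid plexus genes tested passed (1 fell without P14 replicate 2 or 4). Ttr, made by choroid plexus, ranged from 70.4 to 2442 within P7. Alas2, the only blood gene above the filter, fell (-2.97). Of the 5 sex chromosome genes, Xist fell (-7.36) and the others did not pass, although 4 rose without P14 replicate 1 or 2, which hold no Ddx3y reads beyond 1. In fits without 1 library the adjusted p no longer passed for C1qa (adjusted p up to 0.0781 without P7 replicate 1 or 3), C1qc (adjusted p up to 0.0648 without P7 replicate 1 or 3) and Itm2a (adjusted p up to 0.0819 without P7 replicate 1 or 2 or P14 replicate 1 or 2). Omission of 1 library brought past the threshold Cd68 (adjusted p 0.014 without P7 replicate 2) and Kdr (adjusted p 0.0447 without P1 replicate 1).

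The second week differed from the first in which groups moved. The P14 minus P7 change differed from the P7 minus P1 change for 2717 genes (23%), with 1156 more positive in the second week (9.78%) and 1561 more negative (13.2%), and both changes share the P7 libraries. The counts depend on single P7 libraries, since 1772 genes passed without P7 replicate 3 and 1896 without P7 replicate 1. Respiratory chain subunits had a median of -0.22 in the first week and 1.09 in the second, and the difference passed, more positive, for 31 of 37. Cox6a1 read 1008, 1106 and 1140.0 at P1, 699, 607 and 440.0 at P7 and 2153, 2169, 1865 and 2079 at P14. Ribosomal protein genes had a first-week median of -1.23 and a second-week median of 0.07, and 31 of 36 differed in this direction. Rps15 read 1023, 800.2 and 845 at P1 before the P7 and P14 values given above (2.76, adjusted p 3.88e-06). Glycolysis had 14 of 26 members more positive and 2 more negative.

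In the other direction, mature astrocyte functions had 8 of 26 members more negative and 3 more positive in the second week, and their median was 1.41 in the first week and 1.14 in the second. Transmitter uptake and receptors had 15 of 33 more negative and 0 more positive (medians 1.42 and 0.38). Collagens, laminins and integrins had 10 of 25 members more negative and cholesterol synthesis 10 of 24, with first-week medians of 0.66 and 0.67. Reactivity genes had 6 of 11 more negative. In radial glia genes 9 of 23 were more negative and 3 more positive. The shares over all tested genes were 13.2% more negative and 9.78% more positive. The more positive shares of the mature astrocyte and radial glia lists are near the latter.

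**Figure D4:**
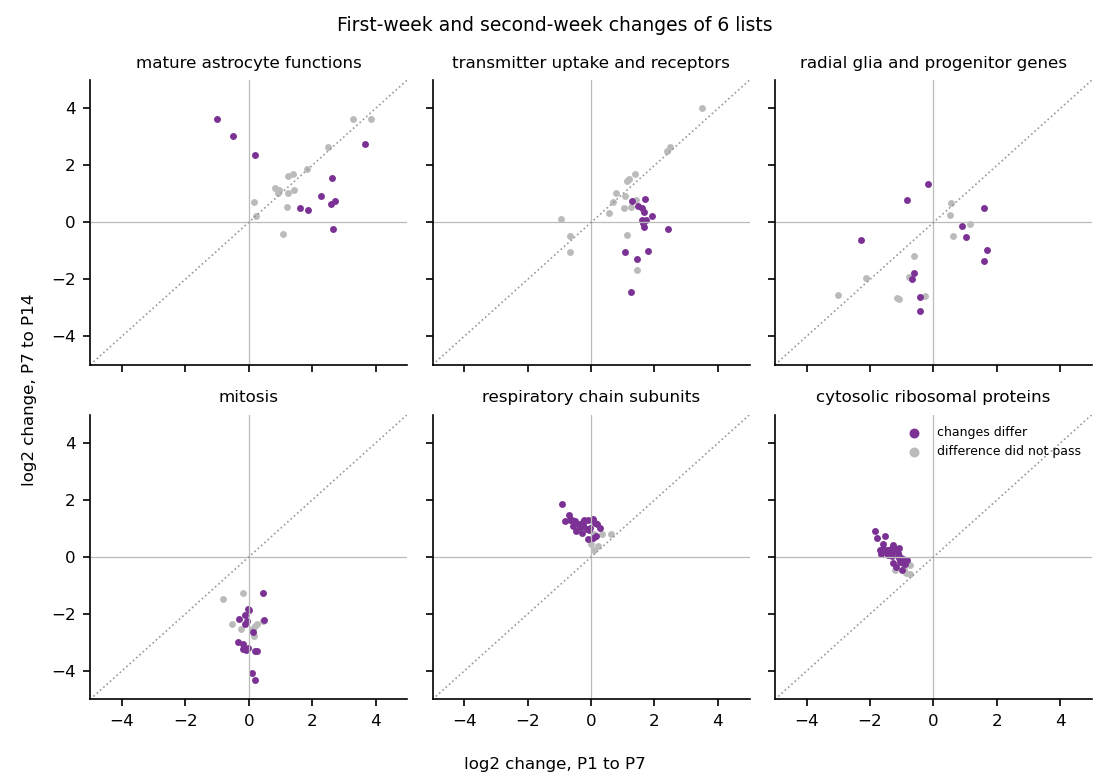
Change in the first week (x axis, log2 difference P7 minus P1) against change in the second week (y axis, log2 difference P14 minus P7) for the tested members of 6 lists, one point per gene, purple where the 2 changes differed at an adjusted p under 0.05 and grey where that did not pass, with the dotted line marking equal changes. Respiratory chain and ribosomal genes lie above the line, mitosis genes lie near 0 in the first week and below the line, and the P7 libraries enter both axes.

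Under the abundance limit of the rankings above, and without the same lists, 4 genes in each direction had the largest contrasts between the weeks. Gpd1, glycerol-3-phosphate dehydrogenase, read 36.7, 33.2 and 36.2 at P1, 12.7, 15.5 and 9.97 at P7 and 180.1, 91.8, 125 and 116 at P14, and its changes differed by 4.64 (adjusted p 1.92e-05). Mt2 read 329, 492 and 509 at P1 and differed by 4.63, Tagln3, a transgelin, read 72.4, 44.1 and 35.4 at P1, 21.9, 18.6 and 15.4 at P7 and 113, 103, 141 and 123 at P14 and differed by 3.97, and Sult1a1 differed by 3.61. The P7 means of Gpd1, Mt2 and Tagln3 lay below those of both P1 and P14. Angpt1, the angiopoietin that acts on the receptor Tie2, read 57.1, 106 and 111 at P1, 422, 387 and 373 at P7 and 116, 150.3, 125 and 127 at P14 (-3.76, adjusted p 1.83e-05). Cyp1b1, a cytochrome P450, read 27.6, 52.9 and 89.6, 139, 184 and 160.4 and 32.2, 23.3, 37.5 and 14.02 at the 3 ages (-4.26), and Igsf1, an immunoglobulin family membrane protein, read 10.5, 28.2 and 13.6, 174, 183 and 174 and 156, 89.9, 163 and 148 (-3.77). Angpt1 and Cyp1b1 peaked at P7, while Igsf1 rose before P7 and did not pass after it (-0.38). Snhg11 differed by -5.41 and had the wide P7 spread given above.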

How the data were processed

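Bulk RNA-seq was compared over 4 P14, 3 P7 and 3 P1 cortex libraries. The submitters' processing notes name FastQC, MultiQC, STAR 2.5.0a, DESeq2 1.20.0 and mm10, without roles. The authors deposited a normalised signal per gene, each library's reads divided by 1 factor, since all values (100%, within 0.01 reads) were whole multiples of 1 step. The table lists 24421 symbols, 27 turned into dates and not named. Values were tested as log2(value + 1) with limma 3.58.1 (trend) in R 4.3.3 over the 3 ages, for genes with a mean of at least 10, with Benjamini-Hochberg adjustment; fold changes on this scale understate the change of low genes. On recovered reads the quasi-likelihood test of edgeR 4.0.16 called 5546 genes and DESeq2 1.42.0 called 5709. The procedure was tested on simulated data. Each table of the series was scaled separately, so only cortex was used.

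Named genes are the top 12 in each direction among changed genes that were of at least median abundance and had groups without overlap (no predicted genes, pseudogenes, Rn45s or genes of the lists for other cell types, reactivity, early response and sex chromosomes), Gabbr1, Gabbr2, up to 5 changed members per list and direction, up to 2 members that did not pass, and 4 genes each way for the difference between weeks; some of these are not reported here. Members and lists were chosen with earlier results of these data known. Alternatives were pseudocounts of 0.1 and 8, other filters, scalings, variance models, tests, a Ddx3y covariate and leaving out libraries. Promoters came from RefSeq, matched by symbol. Hemoglobin and other members below the filter were not tested.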

Additional observations from a re-analysis of the deposited data

Results flagged for a closer look

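For 20 of the 264 named genes 1 of the 4 P14 libraries stood apart, with a gap to its neighbour that exceeded Dixon's critical value for 4 samples as a share of the range, and chance alone gives about 1 such group in 20. Values are normalised read counts. P14 replicate 1 was the highest library for Prex2 (12419.7, group median 11282) and Slc17a6 (10.97, group median 0.473). P14 replicate 1 was the lowest library for Ednrb (3429, group median 3601) and Abca1 (967, group median 1213). P14 replicate 2 was the highest library for Mal (206, group median 136). P14 replicate 2 was the lowest library for H2-K1 (60.4, group median 85.1). P14 replicate 3 was the highest library for Atp1b1 (989.6, group median 748), Idi1 (1402, group median 1266), Lamb1 (58.7, group median 22.1), Emp1 (14.2, group median 1.89), Vim (366, group median 230.1) and Flt1 (175, group median 50.2). P14 replicate 3 was the lowest library for Kcng4 (96.8, group median 146), Mcm5 (1.58, group median 3.78) and Pola2 (4.41, group median 19.0). P14 replicate 4 was the highest library for Dpysl5 (29.6, group median 23.6), Uhrf1 (18.2, group median 3.06) and Col9a1 (14.5, group median 4.41). P14 replicate 4 was the lowest library for Gria2 (697, group median 739) and Dld (795, group median 828). 

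A test of the difference between the second-week and first-week log2 changes singled out Mt2 (4.63), Sult1a1 (3.61), Gpd1 (4.64) and Tagln3 (3.97), with the more positive change in the second week, and Snhg11 (-5.41), Cyp1b1 (-4.26), Igsf1 (-3.77) and Angpt1 (-3.76), with the more negative change, each past the adjusted p threshold of 0.05 (limma). Both changes use the same P7 libraries, so a deviation of P7 enters the difference with weight 2.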

How the results depend on the processing

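Counts depended on the number of genes tested and on the fold required: a minimum mean of 100 gave 3295 changed genes (1452 higher, 1843 lower), and requiring 2-fold gave 2765 (826 higher, 1939 lower). With 1 library left out the changed genes numbered 4810 to 5928 (1810 to 2233 higher, 3000 to 3695 lower), and the differences between the weeks 1772 to 2753 (823 to 1154 more positive, 949 to 1627 more negative). The lowest week count came without P7 replicate 3. TMM scaling gave 3006 higher and 2738 lower genes, quantile normalization 2860 and 2829, edgeR on recovered reads 2726 and 2820, and DESeq2 2934 and 2775, in place of 2197 and 3696. The other settings kept the counts within 1.5 times. Of the 264 named genes, 209 changed, and 126 of these kept direction and call under all of the 26 settings that tested them. The minimum mean of 100 tested only 193 of the 264, and requiring 2-fold ended 66 calls by size alone. Under quantile normalization Slc1a3 (-0.0644), Hmgcs1 (-0.48), Mthfd2 (0.0852), Bmpr2 (-0.44) and Ncor1 (-0.28) reversed and Slc1a2, ranked just below Rn45s in each P7 and P14 library, became 0 by construction. For the others the cause was not tested. No paired analysis was possible because the labels give the libraries no shared replicate numbers. Depth limits genes with few reads: 3 reads correspond to a mean value of 1.80 at P7 and 1.38 at P14, and differences of genes near that level were not resolved.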
